A study of Homo sapiens with 6 samples.

Results

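Ribosome biogenesis was examined through 58 genes of the nucleolar pathway that transcribes ribosomal DNA with RNA polymerase I, cuts and modifies the precursor ribosomal RNA, and assembles the small and large ribosomal subunits. The members are the rows of the count table that carry the 58 gene names, out of 58978 rows, and each name was found on a single row. All are annotated as protein coding, on 20 chromosomes. The RNA came from HT29 cells, a long-established line of human colorectal adenocarcinoma grown in McCoy's 5A medium with serum. The control cells carried a control hairpin (shCTRL, 3 libraries) and are labelled WT, and the other cells carried a hairpin that knocks down FITM2, an endoplasmic reticulum protein of lipid droplet formation (shFITM2, 3 libraries). Both groups are labelled untreated, and the labels give neither the hairpin sequence nor whether the libraries came from separate cultures, so the spread behind each p-value is that of these libraries and may be technical.

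RNA polymerase I makes a long precursor of the ribosomal RNAs in the nucleolus. The small subunit processome, a large particle built around the U3 small nucleolar RNA (snoRNA), folds and cleaves the part that becomes the small subunit, while snoRNPs (complexes of snoRNAs and proteins) modify the precursor and other factors mature the large subunit. Proliferating tumour cells, those of the colon among them, are known for high ribosome production, and MYC is a known activator of many of these genes.

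FITM2 mRNA had 13.3, 10.6 and 10.4 CPM (counts scaled to equal depth, on TMM library sizes) in the shCTRL libraries and 4.83, 5.98 and 4.95 CPM in shFITM2, so that all shFITM2 libraries lay below all controls. FITM2 thereby stood at 46.0% of control, a log2 fold change of −1.12 ± 0.157 with its SE (Benjamini-Hochberg adjusted p = 0.000242 in edgeR's quasi-likelihood model), and −1.10 with the correction for GC content described further on. The libraries held 16964075 to 18855731 counts. The slope of log2 expression on transcript GC content, per 10 percentage points, ran from −0.34 to −0.06 in shCTRL and from 0.18 to 0.26 in shFITM2, and shCTRL replicate 3 was the control with −0.06. All 11 markers of colonic epithelium were measured, with CDX1 and CDX2 at under 2 CPM in the mean of each group (0.841 and 0.452 CPM for CDX1, 0.818 and 1.72 CPM for CDX2, shCTRL first). In the group fit 7 of the 11 rose and 1 fell, against 24.2% and 24.5% of all genes tested, and with the correction for GC content 4 rose and 2 fell, against 11.8% and 17.4%. Their summed level was 9756 to 11750 CPM in shCTRL and 13260 to 13990 CPM in shFITM2. Of 12 markers of other cell types, COL1A2 and ALB had no reads and 4 passed the filter on low counts. LYZ (lysozyme), the abundant one, averaged 841.9 CPM in shCTRL and 901.9 CPM in shFITM2 and brought the sum to 769.2 to 895.8 CPM and 881.1 to 917.7 CPM. Without LYZ the rest summed to 2.54 to 4.17 CPM in shCTRL and 2.47 to 3.84 CPM in shFITM2, and their part in the results was not tested.

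Messenger RNAs of ribosome biogenesis were more often lower than higher after FITM2 knockdown. In all, 32 of the 57 members tested fell, against 24.5% of all 14809 genes tested, and 4 rose (NHP2, GAR1, NOB1 and NOC2L), against 24.2%. The 58 genes together took 0.730%, 0.734% and 0.720% of all reads in the shCTRL libraries and 0.589%, 0.599% and 0.600% in shFITM2, without overlap between the groups. In bulk RNA, fewer cells of a type and less RNA per cell cannot be told apart. Calls were made at 0.05 after adjustment over every gene tested. The median log2 fold change of the members was −0.28, beside −0.0002 for all genes tested, and it ran from −0.84 for UTP20 to 1.40 for NHP2.

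Because fold changes moved with transcript GC content in these libraries, the model was also run with a GC offset, a correction for each gene and library taken from the smooth trend of that library's values on GC content. With the offset, 39 members fell, against 17.4% of 14635 genes, and NHP2 and GAR1 rose, against 11.8%. The median was −0.30, beside −0.03 for all genes of that fit. In both fits 26 members fell, against 10.0% of genes, and 2 rose, against 7.91%. None was called in opposite directions with all 6 libraries, while 314 of the 14635 genes were. A response of the cells that itself tracks GC would be taken out by the offset too, and the GC trend and the groups cannot be told apart in this design. Leaving out shCTRL replicate 3 raised the number of members called higher from 4 to 12 in the group fit, against 29.5% of all genes. With the offset that number went from 2 to 5, against 15.5%. The 8 members then added in the group fit were BOP1, IMP4, NOC4L, NOP10, PES1, RRP1, RRS1 and UTP14A, and the 3 added with the offset were BMS1, NOP10 and UTP14A. Of the 8, BOP1, IMP4, NOC4L, PES1, RRP1 and RRS1 were then called lower with the offset, so that their calls were opposite. The number called lower was then 34 (with IMP3 and NOP56) and 43 (with IMP3, NOL10, NPM1 and RRS1), against 29.5% and 21.8% of all genes. Without shCTRL replicate 2, NCL, NOP14 and NOP16 were called lower with the offset.

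**Figure D1:**
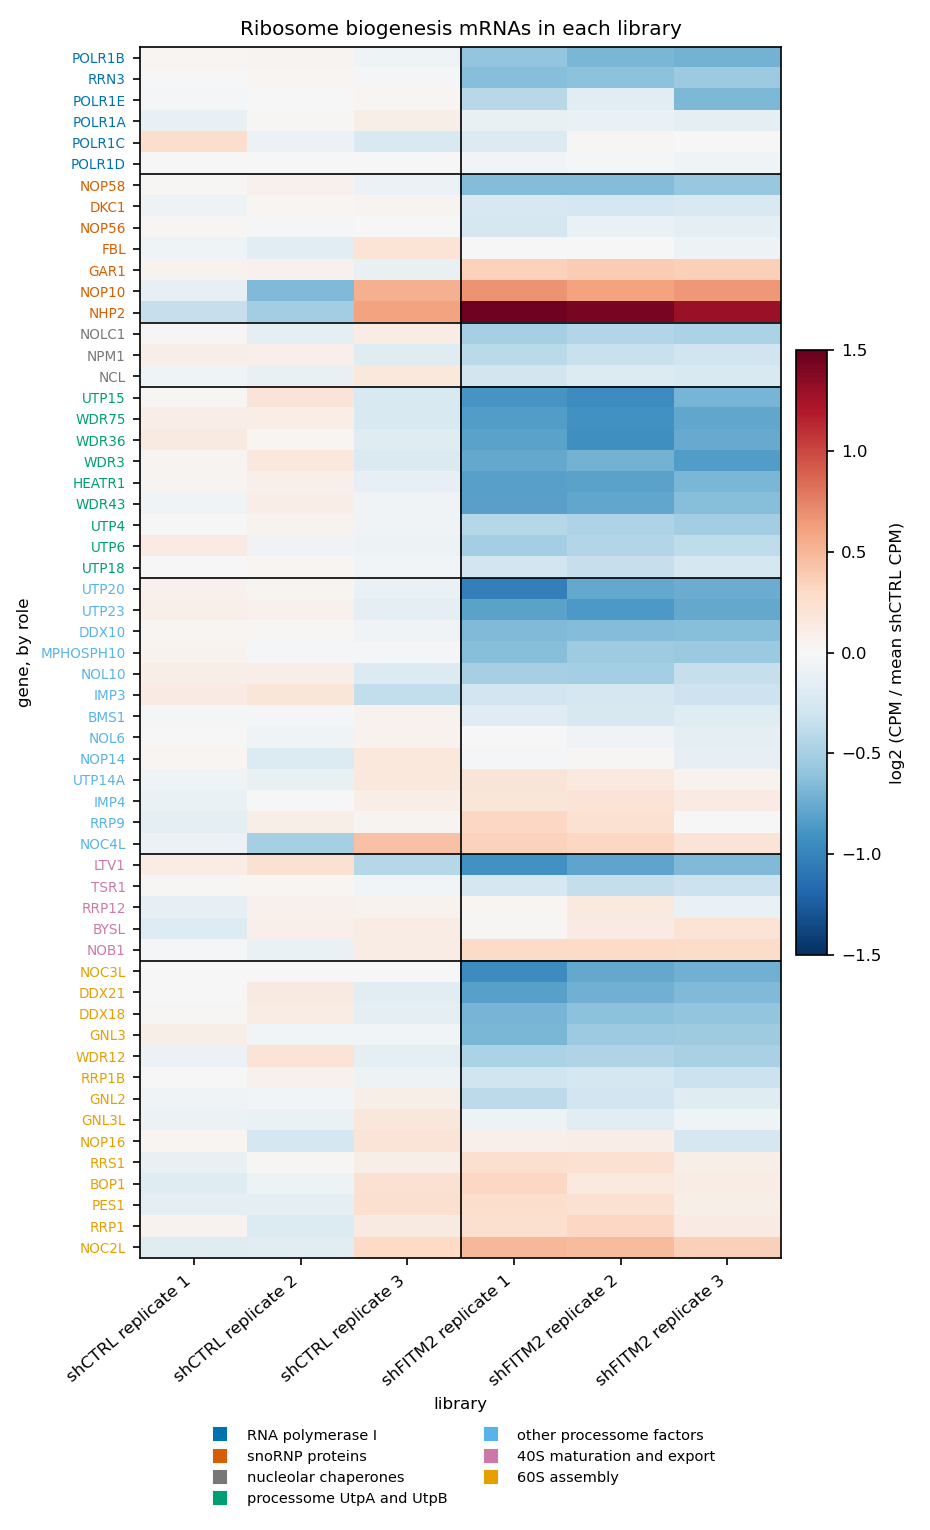
Each row is a member tested (57 rows, names coloured and grouped by role, ordered by fold change within a role) and each column a library. Colour gives log2 of CPM over the mean shCTRL CPM. The 9 members of UtpA and UtpB shown are lower in all 3 shFITM2 libraries while GAR1 and NHP2 are higher.

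All 3 shFITM2 libraries lay below all 3 shCTRL libraries for 34 members, against 29.9% of genes tested, and above them for 6, against 29.1%. The other 17 overlapped. NOP2, an rRNA methyltransferase gene, did not pass the filter on low counts, with 5, 5 and 7 reads in shCTRL and 9, 16 and 7 in shFITM2, and no test was made for it. AC006064.6, which overlaps NOP2 on the same strand, had 0 reads. Whether reads of NOP2 went uncounted because of this overlap was not tested, so its level is uncertain.

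The upstream sequence of a pair of members that fell in both fits is shown for motif matches that recur among the members. Promoter sequences came from RefSeq (GRCh38.p14), which gave a start for 47 of the 58 members. The searched window was the 250 bases before the start, on both strands. The window of UTP20 is chr12:101279855-101280104 and that of LTV1 chr6:143843088-143843337, both on the plus strand and both upstream of the annotated gene. Capitals mark CACGTG, the MYC-type E-box, and CCGGAAG or its reverse complement, an ETS-type core.
UTP20: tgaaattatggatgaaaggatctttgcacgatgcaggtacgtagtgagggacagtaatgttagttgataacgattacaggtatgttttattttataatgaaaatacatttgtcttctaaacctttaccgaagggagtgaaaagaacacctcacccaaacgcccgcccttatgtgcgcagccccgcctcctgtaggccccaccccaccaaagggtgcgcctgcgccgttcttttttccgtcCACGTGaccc
LTV1: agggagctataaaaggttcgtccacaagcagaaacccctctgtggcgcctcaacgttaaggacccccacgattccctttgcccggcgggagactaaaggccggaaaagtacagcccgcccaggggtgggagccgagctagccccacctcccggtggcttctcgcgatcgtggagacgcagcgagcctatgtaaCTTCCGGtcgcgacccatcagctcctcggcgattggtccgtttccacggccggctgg

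CACGTG was found upstream of 6 of the 47 members (12.8%), namely UTP20, IMP4, UTP14A, UTP4, UTP18 and NOP10, and upstream of 8.95% of 10046 tested genes with a promoter entry and 6.34% of all 35116 entries. UTP20, UTP4 and UTP18 fell in both fits, IMP4 with the offset alone, and UTP14A and NOP10 passed the test in neither. CCGGAAG was found upstream of 16 members (34.0%), against 16.2% of tested genes and 8.52% of all entries. Of these 16, POLR1B, UTP4, UTP18, WDR3, WDR36, LTV1, TSR1, NOC3L and DDX21 fell in both fits, and FBL and RRP9 with the offset alone. With or without a motif, 26 of the 57 members tested fell in both fits, against 10.0% of all genes. GAR1 rose in both fits, NOC2L rose in the group fit alone, and POLR1C, NOP10 and NOP16 passed the test in neither. The palindromic NRF1 consensus was found for DKC1, UTP18, DDX10 and NOB1 (8.51%, against 2.01% of tested genes), and a palindromic element known from ZBTB33 binding for NOP14 (2.13%, against 0.826%). A match is a description of these letters, and no binding was measured.

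Among the 6 genes of RNA polymerase I and its initiation, POLR1B, POLR1E and RRN3 fell in the group fit and none rose. Of all genes tested, 24.5% fell and 24.2% rose. With the offset 4 of the 6 fell and none rose, against 17.4% and 11.8%. POLR1B (ENSG00000125630, chromosome 2, 112541915 to 112577150, plus strand, GRCh38) encodes the second-largest subunit, which forms the active centre with POLR1A. It had 67.8, 68.4 and 63.7 CPM in shCTRL and 44.4, 41.3 and 40.7 CPM in shFITM2. The groups did not overlap, and POLR1B in shFITM2 stood at 63.2% of control. On the log2 scale the difference was −0.66 ± 0.0781 in the group fit and −0.49 ± 0.0655 under the offset (adjusted p = 0.000101 and 5.57e-05, edgeR).

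RRN3 (ENSG00000085721, chromosome 16, 15060022 to 15094317, minus strand) is the factor that brings the polymerase to the ribosomal DNA promoter. Its mRNA had 130.4, 133.2 and 128.5 CPM in shCTRL and 84.0, 85.6 and 89.3 CPM in shFITM2, 66.0% of control. RRN3 was thus tight within each group and separate between them, at −0.60 ± 0.0665 in the group fit and −0.29 under the offset (adjusted p = 7.56e-05 and 0.000563, edgeR). RRN3 has 3 named pseudogenes that could share its reads.

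POLR1E (chromosome 9, 37485935 to 37503697, plus strand), a subunit that helps the polymerase engage the promoter, had 20.1, 20.5 and 20.9 CPM in shCTRL and 15.4, 18.4 and 12.9 CPM in shFITM2. The shFITM2 libraries were all lower but spread widely. Its difference was −0.40 ± 0.128 in the group fit and −0.51 under the offset (adjusted p = 0.0230 and 0.00369, edgeR). POLR1E missed the threshold of the group fit when shCTRL replicate 1, shFITM2 replicate 1 or shFITM2 replicate 3 was left out (adjusted p = 0.0537, 0.0751 and 0.0992).

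POLR1A (chromosome 2, 86020216 to 86106155, minus strand), the largest subunit, had 115.8, 126.5 and 132.4 CPM in shCTRL and 115.2, 116.6 and 112.7 CPM in shFITM2. These ranges overlapped, and POLR1A was not called in the group fit (−0.12 ± 0.0717, adjusted p = 0.183, edgeR) but was lower with the offset (−0.26 ± 0.0541, adjusted p = 0.00182). POLR1C (chromosome 6, 43509702 to 43562419) and POLR1D (chromosome 13, 27620742 to 27744237), both on the plus strand, encode subunits that RNA polymerase III shares. POLR1C had 30.04, 23.6 and 21.3 CPM in shCTRL and 21.6, 25.2 and 25.1 CPM in shFITM2. POLR1D had 342.2, 338.1 and 338.3 CPM in shCTRL and 329.4, 332.4 and 326.0 CPM in shFITM2, below the controls by little. Neither shared subunit passed the test in either fit, with log2 fold changes of −0.06 ± 0.13 and 0.03 ± 0.114 for POLR1C and −0.04 ± 0.0577 and −0.03 ± 0.0415 for POLR1D. The offset value of POLR1D depended on the transcript taken for GC content: with the principal transcript (57.2% GC in place of 48.3%) POLR1D was called lower at −0.44 (adjusted p = 2.08e-05, edgeR). The exons of POLR1C share 6.3% of their bases with XPO5 on the opposite strand, which had 127.5 CPM in shCTRL.

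**Figure D2:**
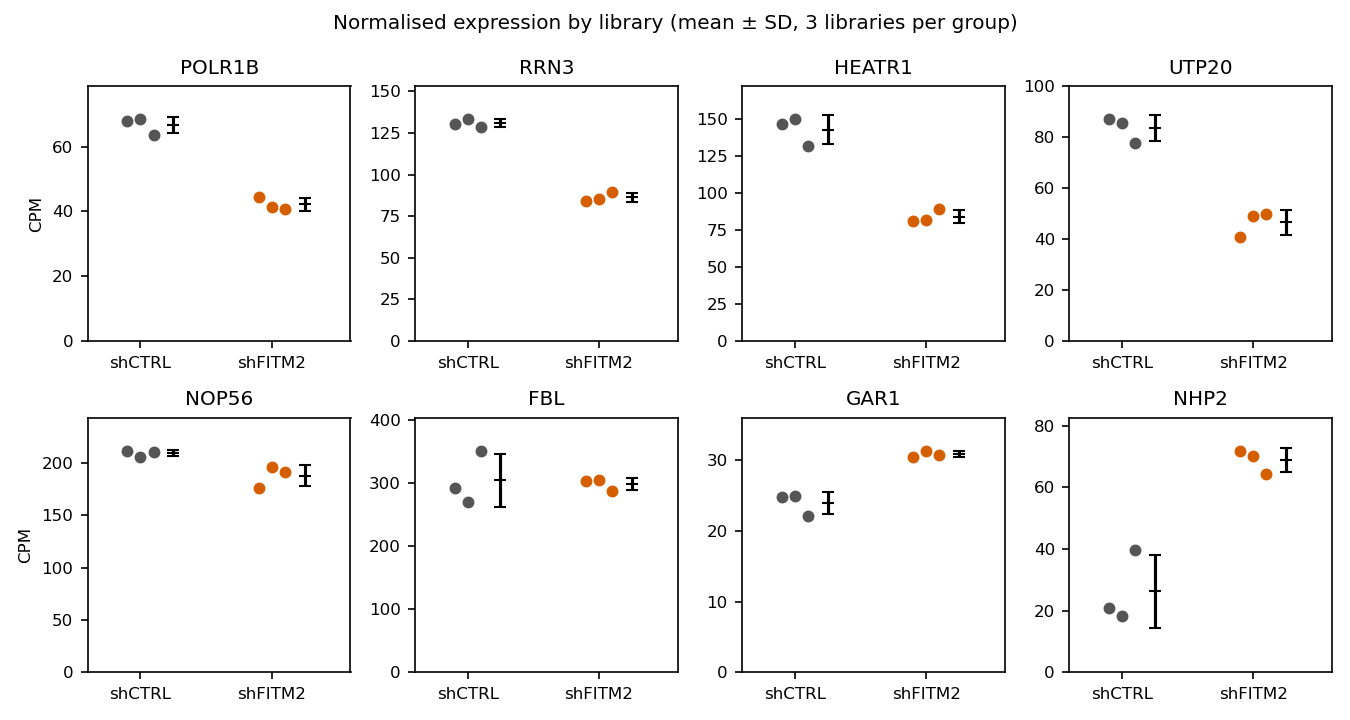
Points are CPM of single libraries for 8 members, with mean and SD of the 3 libraries beside them, and each axis starts at 0. POLR1B, RRN3, HEATR1 and UTP20 are lower in every shFITM2 library, FBL overlaps, and GAR1 and NHP2 are higher.

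The 9 members that belong to UtpA and UtpB, complexes that bind the growing precursor early and start the processome, all fell in both fits. Of all genes, 24.5% and 17.4% were called lower in each. NOL11, TBL3 and PWP2 also belong to these complexes but are not members. NOL11 fell in both fits, TBL3 with the offset alone, and PWP2 passed the test in neither. HEATR1 (ENSG00000119285, chromosome 1, 236549005 to 236604504, minus strand), the UtpA member also linked to ribosomal DNA transcription, had 146.7, 149.7 and 131.3 CPM in shCTRL and 80.9, 81.7 and 88.9 CPM in shFITM2. HEATR1 in shFITM2 stood at 58.8% of control (−0.77 ± 0.0771, adjusted p = 5.24e-05, edgeR; −0.46 with the offset, adjusted p = 9.15e-06). HEATR1 shares 23.2% of its exon bases with LGALS8 on the opposite strand, which had −0.37 and, with the offset, −0.05.

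WDR43, also of UtpA, had 104.6, 115.9 and 104.3 CPM in shCTRL and 61.7, 62.9 and 69.8 CPM in shFITM2. WDR75, of UtpA, had 93.5, 93.7 and 74.6 CPM against 48.9, 46.6 and 50.9 CPM. WDR36, of UtpB, had 111.7, 103.6 and 89.5 CPM against 58.2, 53.5 and 60.2 CPM. For these 3 genes shCTRL replicate 3 was the lowest control and still stood above every shFITM2 library. Their log2 fold changes were −0.74, −0.84 and −0.83 (adjusted p = 6.73e-05, 9.06e-05 and 7.67e-05, edgeR) and −0.39, −0.45 and −0.38 with the offset (adjusted p = 0.000119, 0.000106 and 0.000521). The other 5 of the 9 genes had −0.84 (UTP15), −0.77 (WDR3), −0.47 (UTP4), −0.44 (UTP6) and −0.30 (UTP18). With the offset these were −0.43, −0.39, −0.36, −0.19 and −0.17. With the offset, UTP6 and UTP18 were the weakest of the 9 (adjusted p = 0.0227 and 0.0387), and both missed the threshold when shCTRL replicate 1 or any of the 3 shFITM2 libraries was left out, UTP18 also without shCTRL replicate 2 and with GC of the principal transcript.

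The transcripts of these 9 genes have 37.3% to 46.3% GC. All tested genes with under 50% GC were called lower in 43.5% of cases in the group fit and in 16.7% with the offset. Of the 9, UTP15, WDR43, WDR75 and WDR3 lay in the bin from 38.7% to 41.2% GC. There the median group-fit log2 fold change of all genes was −0.40. The bins of the others had medians of −0.47 (WDR36), −0.31 (HEATR1 and UTP6), −0.21 (UTP18) and −0.08 (UTP4).

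Of the 13 other processome genes, 6 fell in the group fit and 8 with the offset, 4 of them in both. The shares of all genes were 24.5%, 17.4% and 10.0%. UTP20 (ENSG00000120800, chromosome 12, 101280109 to 101386616, plus strand), a long helical scaffold protein whose upstream sequence is shown above, had 87.1, 85.7 and 77.6 CPM in shCTRL and 41.0, 49.1 and 49.8 CPM in shFITM2. UTP20 had the lowest group-fit value of all members, −0.84 ± 0.0925 (adjusted p = 7.33e-05, edgeR), and −0.56 ± 0.0689 with the offset (adjusted p = 2.38e-05). Genes of its GC bin (41.2% to 43.4%) had a median of −0.31 in the group fit.

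UTP23, which acts with a snoRNA on the small subunit precursor, had 101.8, 101.0 and 86.9 CPM in shCTRL and 55.5, 53.0 and 56.7 CPM in shFITM2. DDX10, an RNA helicase, had 52.9, 52.3 and 49.9 CPM against 32.7, 32.9 and 33.2 CPM. MPHOSPH10, which bridges the U3 snoRNP and the precursor together with IMP3 and IMP4, had 50.8, 48.0 and 48.0 CPM against 31.3, 33.9 and 33.3 CPM. None of these ranges overlapped, and the genes had −0.81, −0.65 and −0.57 in the group fit (adjusted p = 5.5e-05, 0.000113 and 0.000263, edgeR) and −0.36, −0.30 and −0.26 with the offset (adjusted p = 0.000316, 0.00469 and 0.0157). The MPHOSPH10 call under the offset did not survive leaving out shCTRL replicate 1, or replicate 1 or 3 of shFITM2. UTP23 overlaps the far more abundant RAD21 on the opposite strand over 9.9% of its exon bases, and RAD21 had −0.39 and, with the offset, −0.05.

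NOL10 and BMS1, a GTPase gene of the processome, fell in the group fit alone (−0.45 and −0.20, adjusted p = 0.00341 and 0.0264, edgeR), with −0.19 and 0.07 under the offset. BMS1 has 20 named pseudogenes, and its call was lost without shCTRL replicate 1 or any of the shFITM2 libraries, with no filter and in DESeq2. IMP4, RRP9 (a U3 snoRNP protein), NOC4L and NOL6 are rich in GC (57.6% to 64.8%) and fell with the offset alone, at −0.26, −0.40, −0.44 and −0.50 (adjusted p = 0.00283, 0.00676, 0.00323 and 1.11e-05, edgeR). In the group fit these 4 had 0.17, 0.18, 0.29 and −0.06 and were not called. Without shCTRL replicate 3, IMP4 and NOC4L were called higher in the group fit (0.21 and 0.56, adjusted p = 0.00498 and 2.14e-05, edgeR). NOC4L was also called higher there with no filter on low counts (0.30, adjusted p = 0.0384). IMP3, the partner of IMP4, had 49.7, 51.7 and 35.3 CPM in shCTRL and 37.3, 38.4 and 36.7 CPM in shFITM2, and was not called in either fit (−0.28 and −0.81, adjusted p = 0.0902 and 0.0567). Without shCTRL replicate 3, IMP3 was called lower in both (−0.44 and −1.04, adjusted p = 4.89e-06 and 2.14e-17), and with no filter on low counts in the group fit (−0.27, adjusted p = 0.0241). IMP3 shares 31.2% of its exon bases with SNX33. NOP14 and the helicase cofactor gene UTP14A had −0.04 and 0.13, and −0.16 and 0.15 with the offset, without a call.

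Of 7 snoRNP genes, 2 fell and 2 rose in the group fit, near the 24.5% and 24.2% of all genes tested, and 4 fell and 2 rose with the offset, against 17.4% and 11.8%. NOP56, NOP58 and FBL encode the core of box C/D snoRNPs, which methylate ribosomal RNA, FBL being the methyltransferase. NOP58 (ENSG00000055044, chromosome 2, 202265716 to 202303666, plus strand) had 145.5, 150.2 and 134.7 CPM in shCTRL and 91.3, 91.2 and 96.4 CPM in shFITM2. NOP58 fell in both fits, at −0.63 ± 0.0709 and −0.31 under the offset (adjusted p = 8.26e-05 and 0.000201, edgeR).

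NOP56 had 211.5, 206.0 and 210.3 CPM in shCTRL and 176.4, 195.6 and 190.8 CPM in shFITM2, lower in every library but not called in the group fit (−0.16, adjusted p = 0.0651, edgeR). FBL had 291.9, 269.6 and 351.4 CPM in shCTRL and 303.4, 305.1 and 287.9 CPM in shFITM2, within the range of the controls (−0.03, adjusted p = 0.832). Both were lower with the offset, NOP56 at −0.51 ± 0.0576 and FBL at −0.46 ± 0.0471 (adjusted p = 1.32e-05 and 4.47e-06). Their transcripts have 56% and 57.9% GC, where the median of all genes was 0.36 in the group fit, while that of NOP58 has 41.3%.

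Box H/ACA snoRNPs turn uridine into pseudouridine, with DKC1 as the enzyme and GAR1, NHP2 and NOP10 as its partners. DKC1 had 218.6, 234.9 and 238.2 CPM in shCTRL and 195.3, 192.8 and 196.5 CPM in shFITM2, and fell in both fits (−0.24 and −0.23, adjusted p = 0.00827 and 0.00212, edgeR). GAR1 (ENSG00000109534, chromosome 4, 109815510 to 109824740, plus strand) had 24.7, 24.9 and 22.1 CPM in shCTRL and 30.5, 31.3 and 30.7 CPM in shFITM2. GAR1 was thus higher in every shFITM2 library, by 0.36 ± 0.0904 and by 0.44 ± 0.0809 with the offset (adjusted p = 0.0062 and 0.000823), and was called under all alternatives tried in each fit.

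NHP2 (ENSG00000145912, chromosome 5, 178149460 to 178153967, minus strand) had 20.7, 18.3 and 39.7 CPM in shCTRL and 71.9, 70.3 and 64.5 CPM in shFITM2. The groups did not overlap although shCTRL replicate 3 stood well above the other controls. NHP2 rose by 1.40 ± 0.303 (adjusted p = 0.0126, edgeR) and by 1.01 ± 0.262 with the offset (adjusted p = 0.0480). The call with the offset was lost when any library other than shCTRL replicate 3 was left out (adjusted p = 0.103 to 0.127), and that of the group fit with no filter on low counts (adjusted p = 0.0649). NHP2 shares 27.4% of its exon bases with RMND5B on the opposite strand, which had 0.12 in the group fit and was not called.

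NOP10, the smallest partner, had 43.5, 29.8 and 68.6 CPM in shCTRL and 75.3, 72 and 74.2 CPM in shFITM2. All shFITM2 libraries lay above the controls, but the controls spread widely and NOP10 was not called (0.64 ± 0.299, adjusted p = 0.132, edgeR; 0.68 with the offset, adjusted p = 0.225). Without shCTRL replicate 3, NOP10 was called higher at 1.00 and 1.05 (adjusted p = 2.15e-05 and 0.00175).

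The nucleolar chaperone genes NOLC1, NPM1 and NCL all fell in the group fit, against 24.5% of all genes tested. NOLC1, which binds snoRNPs and RNA polymerase I, had 275.0, 247.3 and 292.5 CPM in shCTRL and 192.6, 200.3 and 195.0 CPM in shFITM2. It was lower in both fits (−0.47 ± 0.0728 and −0.43 ± 0.0581, adjusted p = 0.000411 and 7.4e-05, edgeR). NPM1 (nucleophosmin), a histone and ribosome chaperone, had 1345, 1342 and 1123 CPM in shCTRL and 962.0, 1004 and 1029 CPM in shFITM2. NCL (nucleolin), an RNA-binding protein of the nucleolus, had 763.5, 735.9 and 888.8 CPM against 658.0, 688.3 and 681.9 CPM. Neither group of values overlapped, and the group-fit values were −0.35 for NPM1 and −0.24 for NCL (adjusted p = 0.00306 and 0.0218). With the offset they were −0.11 and −0.17 and not called (adjusted p = 0.118 and 0.0982). NPM1 has 45 named pseudogenes, so its count is uncertain. The NCL call in the group fit was lost when shFITM2 replicate 1, 2 or 3 was left out.

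**Figure D3:**
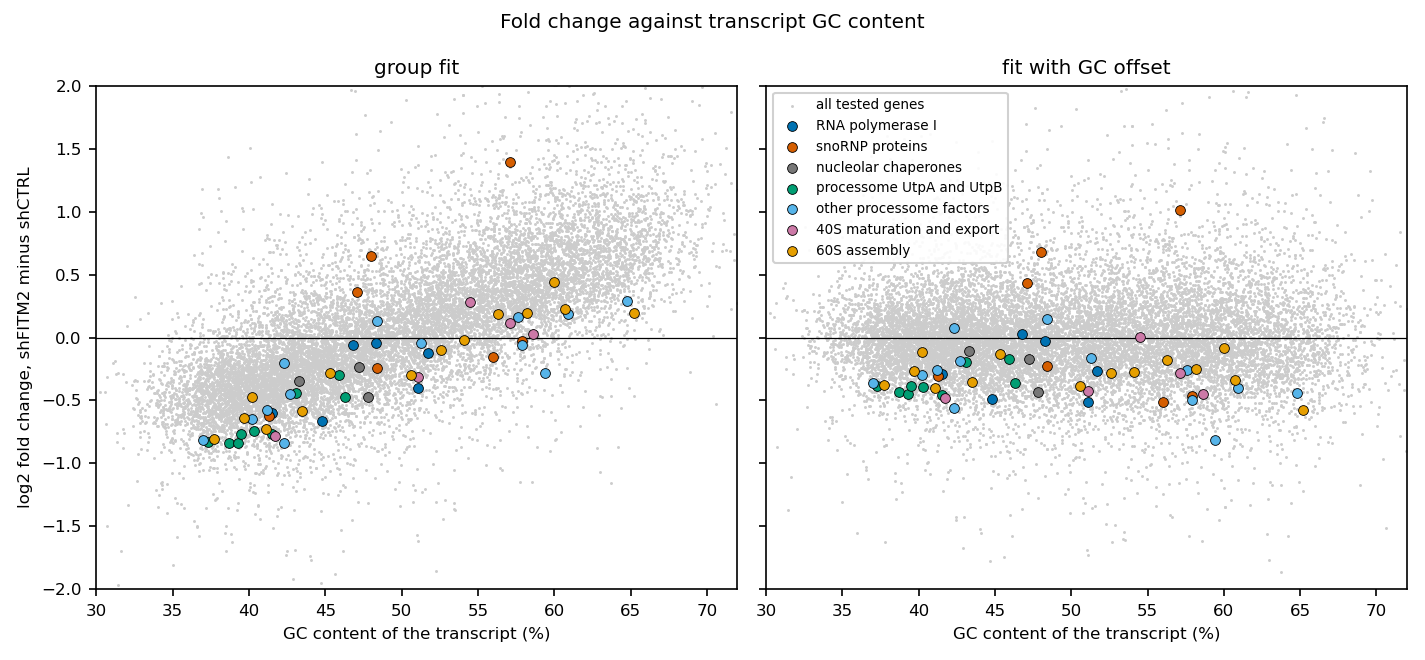
Each point is a gene, with transcript GC content (%) on the horizontal axis and log2 fold change (shFITM2 minus shCTRL) on the vertical axis, for the group fit and for the fit with GC offset. Grey points are all tested genes (77 of 14635 lie outside the axes in the group fit and 50 with the offset), members are coloured by role, and 50 of the 57 members lie below 0 with the offset.

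Members were also described by GC content. Of 34 members with under 50% GC, 29 fell and 1 rose in the group fit, against 43.5% and 4.05% of all genes of such GC content. Of 23 tested members with 50% GC or more, 3 fell (POLR1E, TSR1 and RRP1B) and 3 rose, against 2.52% and 48.0%. With the offset, 23 of the 34 fell, against 16.7%, and 16 of the 23 fell, against 18.2%. Over the 57 members, which share their libraries, Spearman's rho between log2 fold change and GC content was 0.858 in the group fit and −0.0237 with the offset.

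Genes that mature and export the small subunit fell in 2 of 5 cases in the group fit and in 4 of 5 with the offset. The shares of all genes were 24.5% and 17.4%. LTV1, an export and late assembly factor whose upstream sequence is shown above, had 21.9, 23.9 and 15.1 CPM in shCTRL and 10.9, 11.8 and 12.8 CPM in shFITM2. TSR1, a late assembly factor related to GTPases, had 50.6, 51.2 and 48.5 CPM against 42.0, 39.0 and 40.2 CPM. Both fell without overlap between groups, LTV1 at −0.78 and −0.48 with the offset (adjusted p = 0.00228 and 0.0104, edgeR) and TSR1 at −0.31 and −0.42 (adjusted p = 0.00691 and 0.000322). The LTV1 call with the offset was lost without shCTRL replicate 1 or shFITM2 replicate 1.

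NOB1, the endonuclease that makes the final cut of small subunit RNA, had 49.3, 46.4 and 53.6 CPM in shCTRL and 60.8, 60.5 and 60.04 CPM in shFITM2. NOB1 rose in the group fit (0.28 ± 0.0801, adjusted p = 0.0125, edgeR) and stood at 0.01 with the offset (adjusted p = 0.962). Its group-fit call was lost when shCTRL replicate 1, shFITM2 replicate 1 or shFITM2 replicate 2 was left out. BYSL, an assembly factor, had 27.1, 32.6 and 33.5 CPM against 31.6, 33.8 and 35.7 CPM, with overlap. RRP12, a factor for export of both subunits, and BYSL were lower with the offset alone (−0.45 and −0.28, adjusted p = 0.000572 and 0.0320), and the BYSL call did not survive leaving out shCTRL replicate 2, or replicate 1 or 2 of shFITM2.

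Among 14 tested genes of large subunit assembly, 7 fell and 1 rose in the group fit, against 24.5% and 24.2% of all genes. With the offset 9 fell, against 17.4%, and 5 fell in both fits, against 10.0%. NOC3L had 45.0, 44.6 and 44.6 CPM in shCTRL and 23.2, 26.3 and 27.2 CPM in shFITM2. DDX21 (ENSG00000165732, chromosome 10, 68956128 to 68985073, plus strand), a helicase of ribosomal RNA transcription and processing, had 427.3, 468.0 and 380.5 CPM against 241.2, 258.8 and 269.8 CPM. DDX18, another helicase, had 181.0, 193.7 and 162.2 CPM against 110.4, 116.5 and 118.3 CPM. All were clear of overlap, with −0.81, −0.73 and −0.64 (adjusted p = 7.56e-05, 7.99e-05 and 0.000125, edgeR) and −0.38, −0.40 and −0.26 with the offset (adjusted p = 0.00265, 1.85e-05 and 0.000561). DDX18 has 5 named pseudogenes.

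GNL3 (nucleostemin), a nucleolar GTPase of dividing cells, had 112.9, 103.0 and 103.1 CPM in shCTRL and 66.4, 73.0 and 73.4 CPM in shFITM2, and fell in both fits (−0.59 and −0.35, adjusted p = 0.000165 and 0.000368, edgeR). Its relative GNL2 fell in the group fit alone (−0.28 and −0.13), where the call was lost without shFITM2 replicate 1 or 2. GNL3L, a further relative, fell with the offset alone (−0.10 and −0.28), and not without shFITM2 replicate 1 or 2. RRP1B fell in both (−0.30 and −0.39) and its relative RRP1 with the offset alone (0.23 and −0.34).

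BOP1, PES1 and WDR12 form a complex needed to process the large subunit precursor. WDR12 had 40.2% GC and fell in the group fit alone (−0.47 and −0.11, adjusted p = 0.0025 and 0.288, edgeR). BOP1, with 65.2% GC, had 81.9, 88.3 and 109.3 CPM in shCTRL and 115.3, 103.4 and 100.7 CPM in shFITM2, and PES1, with 58.2% GC, had 57.8, 57.9 and 75.1 CPM against 76.6, 74.2 and 67.7 CPM. Both overlapped, were not called in the group fit (0.19 and 0.20) and fell with the offset (−0.58 and −0.25, adjusted p = 1.72e-05 and 0.00749). BOP1 and PES1 were called higher in the group fit without shCTRL replicate 3 (0.32 and 0.33, adjusted p = 5.43e-05 and 0.000122). NOC2L rose in the group fit (0.45, adjusted p = 0.0150) and had −0.08 with the offset, and its group-fit call was lost without shCTRL replicate 1 or shFITM2 replicate 1. NOP16 and RRS1 were not called in either fit, but NOP16 was called lower when the offset took in GC and length together (−0.30, adjusted p = 0.040, edgeR).

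**Figure D4:**
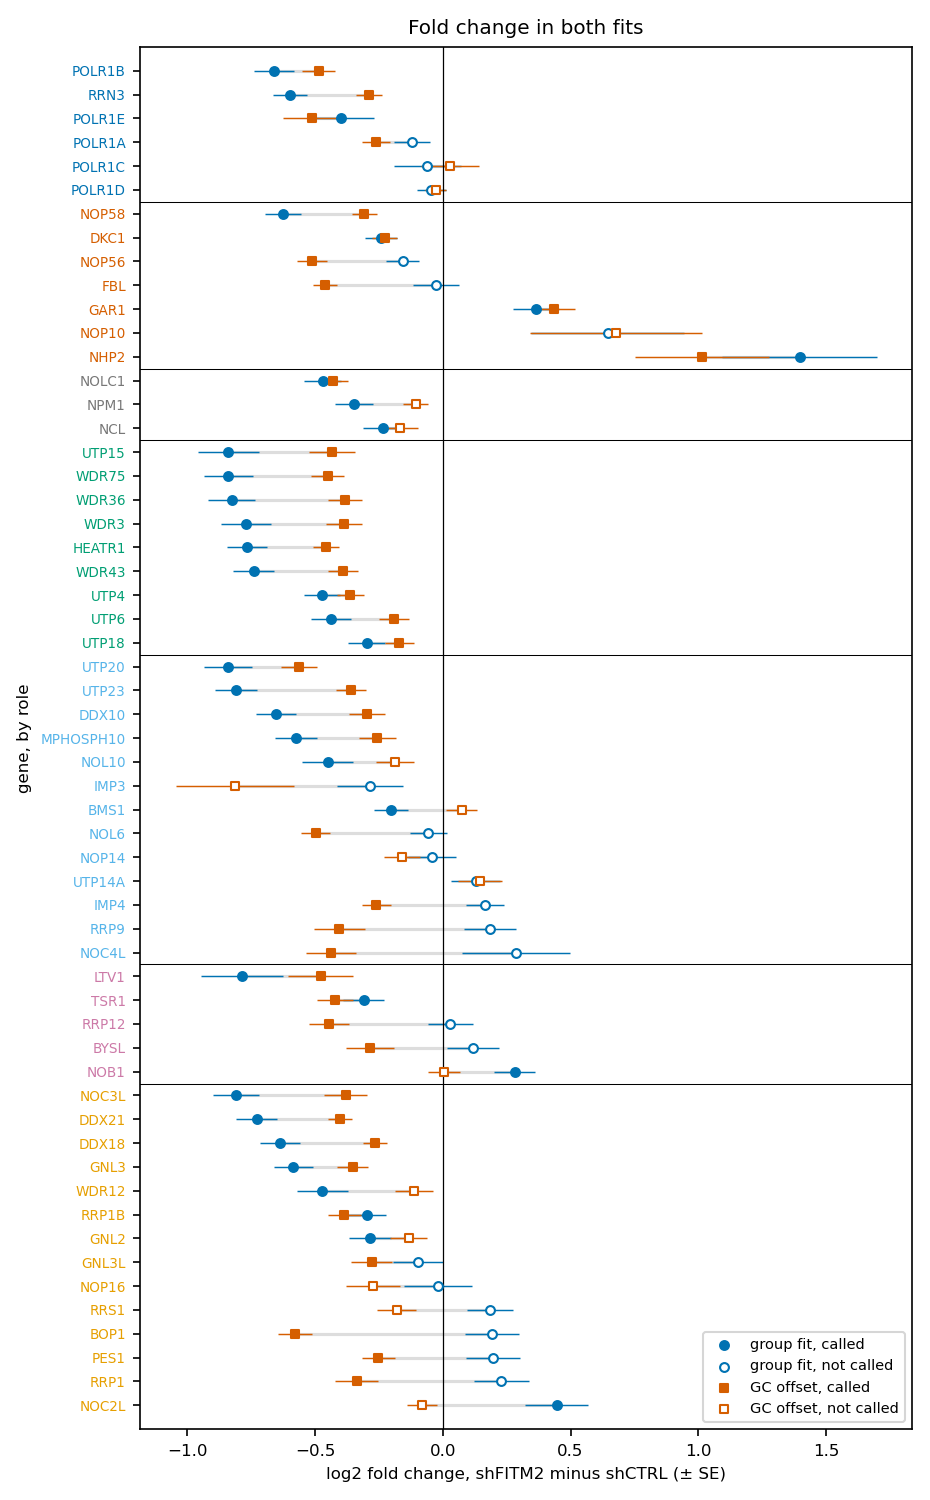
Log2 fold change (shFITM2 minus shCTRL) of the 57 tested members with SE bars, circles for the group fit and squares for the fit with GC offset, filled where the adjusted p was under 0.05. Most squares lie left of 0, between −0.81 for IMP3 (open square) and 1.01 for NHP2.

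Compared per length, with the gene lengths of the deposited table, the members spanned a wide range of levels in control cells. NPM1 was highest at 331.8 ± 33.2 FPKM (SD, n = 3), followed by FBL at 140.0 ± 19.5 and NCL at 114.9 ± 11.8, whose means differ by less than the sum of their SDs. NOP10 had 85.4 ± 35.6 FPKM and DDX21 84.7 ± 8.73, which do not differ beyond their spread. Within the box C/D core, FBL stood above NOP58 (43.5 ± 2.41 FPKM) and NOP56 (38.8 ± 0.531 FPKM). Among H/ACA genes the order was NOP10, DKC1 (54.9 ± 2.49), NHP2 (17.4 ± 7.77) and GAR1 (11.7 ± 0.771). NOP10 and DKC1 were within their spread, and so were NHP2 and GAR1. In shFITM2, NHP2 reached 45.6 FPKM beside 46.4 FPKM for DKC1. Among polymerase I genes RRN3 (31.5 ± 0.576) and POLR1D (30.3 ± 0.206) led, POLR1B (10.5 ± 0.406), POLR1A (9.24 ± 0.621) and POLR1E (8.16 ± 0.172) followed, and POLR1C had 4.50 ± 0.818 FPKM. The table length of POLR1D is 11210 bases, against 4592 for its longest coding transcript. For RRN3 these are 4156 and 3762 bases, so the closeness of RRN3 and POLR1D depends on the length taken. Apart from NOP2, POLR1C had the lowest mean of the 58 on these gene lengths, within the spread of UTP15 (5.48 ± 0.786 FPKM). The table length of POLR1C is 5550 bases, against 2118 for its longest coding transcript, so this rank depends on the length taken.

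Members that host snoRNA genes in their introns were described apart. Annotation places 26 snoRNA genes inside 8 members on the same strand, namely POLR1C, NOP56, NOP58, DKC1, NCL, WDR43, TSR1 and GNL3. Of these 8, 6 fell in the group fit and 6 with the offset, 5 of them in both, and none rose. Of all genes tested 24.5% fell in the group fit, 17.4% with the offset and 10.0% in both, while 24.2% rose in the group fit and 11.8% with the offset. All of these hosts but NOP56 and TSR1 have under 50% GC. Of all genes with such GC content, 43.5% fell and 4.05% rose in the group fit.

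Other genes of the pathway, which are not members, moved in both directions. Of all genes tested, 24.5% fell and 24.2% rose in the group fit, and 17.4% and 11.8% with the offset. Of 14 further genes of RNA polymerase I, its shared subunits and its promoter factors, 6 fell and 4 rose in the group fit. With the offset 5 of the 14 fell and 2 rose. TWISTNB (now POLR1F), a polymerase I subunit gene, had −0.90 and −0.46 with the offset, TAF1D, of the promoter selectivity factor, −0.51 and −0.23, and POLR2E, shared by all 3 polymerases, 0.76 and 0.26, all called in both fits. Of 31 further small subunit genes, 14 fell and 4 rose, and 15 and 1 with the offset. NOL11 (−0.84 and −0.51), DCAF13 (−0.72 and −0.54) and the kinase gene RIOK2 (−1.02 and −0.55) fell in both fits, and the helicase gene DDX49 was called in opposite directions (0.37 and −0.25).

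Of 49 further large subunit genes, 28 fell and 10 rose in the group fit, and 25 and 3 with the offset. For this list and the next, the shares of all genes were again 24.5% and 24.2%, and 17.4% and 11.8% with the offset. BRIX1 (−0.93 and −0.68) and NOL8 (−0.72 and −0.40) fell in both fits, while NOP53 rose in the group fit alone (0.94 and 0.21, adjusted p with the offset 0.107, edgeR). A list of 15 genes covered the RNA exosome, which trims precursor ribosomal RNA, its cofactors and XRN2, a nuclease outside the exosome. Of these 15, 8 fell and none rose in the group fit, and 5 fell and 4 rose with the offset. MTREX (−0.57 and −0.19), EXOSC8 (−0.57 and −0.41) and EXOSC9 (−0.59 and −0.28) fell in both fits. EXOSC3, EXOSC6 and XRN2 rose with the offset alone, and C1D was called in opposite directions (−0.29 and 0.30). Medians of these 4 lists were 0.01, −0.21, −0.24 and −0.24 in the group fit and −0.04, −0.21, −0.20 and −0.19 with the offset, beside −0.0002 and −0.03 for all genes.

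MYC mRNA was not called, at 139.4 CPM in shCTRL and 142.2 CPM in shFITM2 on average (0.03 ± 0.134, adjusted p = 0.876, edgeR; −0.21 with the offset, adjusted p = 0.203). Of 11 genes of upstream control and p53 signalling from the ribosome, 2 fell (MDM2 and RPL5) and 2 rose (MAF1 and RPL11) in the group fit, against 24.5% and 24.2% of all genes tested, and 6 fell and 2 rose with the offset, against 17.4% and 11.8%.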

How the data were processed

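The authors deposited raw read counts per gene for 6 libraries in a single table, with gene lengths. Without giving roles, the submitters' processing notes list featureCounts 1.5.0-p3, HISAT2 2.0.5, DESeq2 1.16.1, StringTie 1.3.3b and the build hg19. All 58735 Ensembl genes of the table have GENCODE release 29 (GRCh38) positions, which are used here. A strand setting is not given in the sources used here, so overlapping genes are named with that limit.

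Groups came from the sample titles. Replicate libraries differed beyond sampling noise (chi-square per gene 2.33 to 29.0). Genes passed edgeR's filter (minimum count 10, minimum total 15), leaving 14809. Groups were compared in edgeR 4.0.16 (R 4.3.3) by the robust quasi-likelihood F-test on TMM library sizes, with group as the sole term. The GC offset was a smoothing spline (6 degrees of freedom) of log2 deviations (prior count 2) on the GC content of the longest coding transcript, for 14635 genes. SE is the fold change over the root of F. Both fits were run on simulated data, with and without a GC trend between groups. With the trend, the group fit called many unchanged genes and the fit with the offset few. That outcome was set by counting the simulated trend as no change, so it does not bear on what the trend in these libraries is. Members, roles and lists were chosen with earlier results of these data known, and values in every library are given for the polymerase genes, for up to 4 members of each other role with the smallest p, and for some further members chosen after their values were seen. Alternatives were DESeq2 size factors or library totals, no filter, the DESeq2 1.42.0 Wald test, leaving out each library, a block for the replicate number, GC with length, and a spline with 3 degrees of freedom. Removal of overlapped members, GC of APPRIS principal transcripts and DESeq2 size factors with the offset were added after seeing the data.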

Additional observations from a re-analysis of the deposited data

How the results depend on the processing

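The 3 libraries per group limit the precision. Left-out libraries moved the members called lower between 28 and 34 in the group fit and between 33 and 43 with the GC offset, those called higher between 2 and 12 and between 1 and 5, and the median between −0.33 and −0.28 and between −0.31 and −0.30. The shares of all genes then ran from 18.1% to 29.5% lower and 17.1% to 29.5% higher in the group fit. With the offset they ran from 11.3% to 21.8% and from 7.41% to 15.5%. All genes called then ran from 5338 to 9008 in the group fit and from 2808 (without shFITM2 replicate 1) to 5620 with the offset, and the offset itself gave 4275 genes called against 7205. Of 32 members lower in the group fit, 28 stayed called under all of its other alternatives, and 33 of 39 with the offset. Leaving out overlapped members gave a median of −0.26 and 3 members higher in the group fit, and −0.30 and 1 with the offset. GC of the principal transcripts gave a median of −0.33.

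Replicate numbers did not pair the libraries (correlations of same-numbered deviations −0.0412, −0.00656 and −0.0653). The replicate block gave 31 members lower and 5 higher, and 39 and 1 with the GC offset and replicate block. In the group fit the block added NOP10 (0.72, adjusted p = 0.0421) and lost BMS1 (−0.20, adjusted p = 0.0797), and with the offset it added IMP3 (−0.78, adjusted p = 0.0467) and lost UTP18 (−0.17, adjusted p = 0.058) and NHP2 (1.06, adjusted p = 0.0904), all in edgeR. It changed no other member's call.

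Directions turned from the group fit to the GC offset for POLR1C (0.028), IMP4 (−0.26), RRP9 (−0.40), BMS1 (0.074), NOC4L (−0.44), BYSL (−0.28), RRP12 (−0.45), BOP1 (−0.58), PES1 (−0.25), NOC2L (−0.082), RRP1 (−0.34) and RRS1 (−0.18), where the GC trend is removed by construction. Left-out libraries turned uncalled members, in the group fit POLR1C (−0.17 to 0.090), FBL (−0.11 to 0.083), NOP14 (−0.14 to 0.034), RRP12 (−0.032 to 0.089) and NOP16 (−0.14 to 0.086), and with the offset POLR1C (−0.063 to 0.17) and NOB1 (−0.014 to 0.017). POLR1C was −0.13 with GC of the principal transcript and NOB1 −0.0033 with GC and length. The cause was not tested.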
